A study of Mus musculus with 20 samples.

Results

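The nuclear genes for subunits of respiratory complexes II to V were followed in mouse liver over 4 groups that differed in Sirt2 genotype and in cold exposure. A gene was a member if its symbol in the expression table was Sdha, Sdhb, Sdhc, Sdhd or Cyc1, or began with Uqcr, Atp5 or Cox followed by a digit from 4 to 8, and 3 symbols containing -ps were left out. This rule found 48 of the 45306 genes of the table, with 4 in complex II, 9 in complex III, 18 in complex IV and 17 in complex V. Of these, 43 passed the filter on low counts and entered the test, among 15616 genes in all. The 5 that did not were the complex IV genes Cox4i2, Cox6a2, Cox7b2, Cox8b and Cox8c.

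The 4 groups held 5 mice each, with 1 RNA library per liver. Control mice were wild-type C57BL/6 mice kept at room temperature, and CE mice were wild-type mice placed at 4 °C for 3 h per day over 3 weeks. Sirt2-/- mice carried a knockout made by injecting ribonucleoproteins against exons 5 to 7 of Sirt2 into fertilized C57BL/6 eggs, a knockout of the whole body, and Sirt2-/-/CE mice combined this genotype with the same cold exposure. Mice of these genotypes and treatments were 5 weeks old when divided into groups, and the age of the sequenced mice is not stated separately in the sources used here. How many knockout lines were kept, and whether knockout and wild-type mice were littermates, is not given in the sources used here. Mice are numbered 1 to 5 (Control), 6 to 10 (CE), 11 to 15 (Sirt2-/-) and 16 to 20 (Sirt2-/-/CE). The labels give no litter, cage or day, and p-values measure the spread between these mice.

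Complex II (succinate dehydrogenase) oxidizes succinate in the TCA cycle and passes the electrons to ubiquinone. Complex III hands them on to cytochrome c, and complex IV (cytochrome c oxidase) uses them to reduce oxygen to water. Complex V (ATP synthase) lets the protons pumped by the chain flow back and makes ATP. Complexes III, IV and V mix nuclear subunits with a few encoded in mitochondrial DNA, whereas complex II is entirely nuclear. Many nuclear subunit genes have short, housekeeping-type promoters bound by NRF1 and by ETS factors such as GABP, and the liver, a tissue rich in mitochondria, expresses them at high levels.

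Promoter sequences are shown as a description of letters that several members share. A link between these letters and the mRNA levels was not tested. RefSeq windows on GRCm38.p6, 300 bases long and reaching from 250 bases before to 50 bases after an annotated start, were matched by symbol for 34 of the 48 members, with 37 windows. The members without one were Atp5a1, Atp5f1, Atp5s, Atp5sl, Cox4i1, Cox4i2, Cox6a2, Cox6c, Cox8c, Cyc1, Sdhc, Uqcrb, Uqcrc2 and Uqcrq. The NRF1 motif, GCGC followed by any base and TGCGC, searched on both strands, was present in 10 of the 37 windows (27%), against 4.6% of all 32851 windows. The ETS motif CCGGAAG, on both strands, was present in 12 windows (32.4%), against 8.86% of all windows. Sdhd, Cox6a1, Atp5h and Atp5k held both. The YY1 motif AAGATGGC was in 2 of 37 windows against 2.75% of all, and CCAAT was in 20 of 37 against 37.4% of all. A match is a description of letters and not a binding site. In the stretches of 30 bases that follow, written 5′ to 3′ on the strand of the gene, the capitals mark the NRF1 or ETS motif or its reverse complement.
Atp5k, NRF1 motif, chr5:108434430-108434459, minus strand: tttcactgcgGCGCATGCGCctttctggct
Atp5h, NRF1 motif, chr11:115420041-115420070, minus strand: gaccccgacgGCGCAGGCGCcgcgcccgcc
Cox6a1, NRF1 motif, chr5:115349056-115349085, minus strand: cggataaagtGCGCAGGCGCtggagttcct
Sdhd, NRF1 motif, chr9:50603909-50603938, minus strand: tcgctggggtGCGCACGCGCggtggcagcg
Sdhd, ETS motif, chr9:50603877-50603906, minus strand: ccgtctcctgcCTTCCGGttcacgcttcag
Uqcr11, ETS motif, chr10:80406869-80406898, minus strand: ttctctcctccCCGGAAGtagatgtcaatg
Atp5e, ETS motif, chr2:174464185-174464214, minus strand: tacggccacagCTTCCGGtagccgctcggc
The NRF1 motif began 50 bases before the RefSeq start in Atp5k, 141 in Atp5h, 117 in Cox6a1 and 79 in Sdhd. The ETS motif began 46 bases before the RefSeq start in Sdhd, 66 in Uqcr11 and 102 in Atp5e. The stretch of Atp5k and the NRF1 stretch of Sdhd overlap exons of GENCODE vM21. In that annotation Atp5k starts further out, at chr5:108434448, beside the motif. Sdha held the NRF1 motif as well.

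The libraries held 35499796 to 53917339 counts each, and the members took 0.63% to 1.11% of them. The targeted gene Sirt2 was lower in both knockout groups, at 21.95 ± 5.01 CPM (counts scaled to library size with TMM factors, SD, n = 5) in Sirt2-/- and 21.56 ± 3.42 in Sirt2-/-/CE, against 42.26 ± 1.3 in Control and 46.6 ± 6.08 in CE. The 10 knockout mice, with 16.92 to 27.53 CPM, did not overlap with the 10 wild-type mice, with 40.22 to 56.23 CPM. Counts of the whole gene also take in exons outside the targeted ones. Marker genes are given as FPKM, which are counts scaled to gene length and depth. Alb was at 28604 to 63344 FPKM in every mouse. Markers of tissues that carry special subunit forms were checked as well. The 10 skeletal muscle markers summed to 0.264 to 1.35 FPKM with Ckm and Mb at 0 in all mice, and the 4 testis markers were at 0. The 4 brown adipose markers summed to 3.72 to 27.9 FPKM in Control, 15.8 to 330 in CE, 24.3 to 46.1 in Sirt2-/- and 0.84 to 493 in Sirt2-/-/CE. Ucp1 was at 0 in all mice and Cidea at 0.075 FPKM or less, so these sums rest on the other listed genes, Elovl3 and Dio2. The 8 adipose markers summed to 1195 to 2344 FPKM in Control, 103 to 1166 in CE, 43.1 to 928 in Sirt2-/- and 1100 to 1550 in Sirt2-/-/CE. Lep, Plin1 and Retn were at 0 in all mice and Adipoq at 0.132 FPKM or less, so these sums rest on the other listed genes, Fabp4, Cidec, Car3 and Cfd. The part of these markers in the results was not tested. In whole tissue, fewer cells of a type and less RNA per cell cannot be told apart.

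2 libraries of Sirt2-/-/CE stood apart before any comparison. Of the 43 tested members, 39 had their highest CPM in mouse 16, and 34 had their lowest in Sirt2-/- mouse 15. The median over the 43 members of the log2 CPM, centred on the mean of all 20 mice, was 0.84 in mouse 16 and 0.48 in mouse 20, against -0.25, -0.22 and -0.06 in the other mice of the same group, numbers 17, 18 and 19. In Control it lay between -0.01 and 0.20, in CE between -0.21 and 0.14, and in Sirt2-/- between -0.54 and 0.02. Comparisons with Sirt2-/-/CE are therefore given with and without mice 16 and 20, a choice made after seeing the data.

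**Figure D1:**
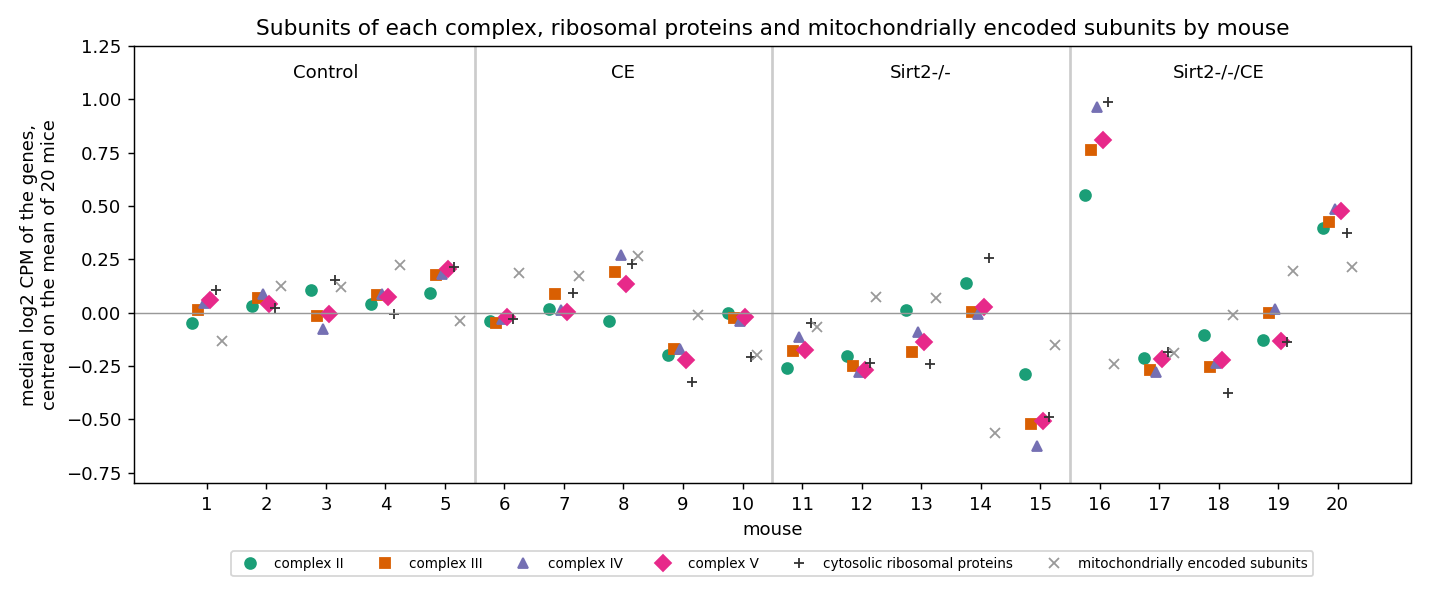
Median log2 CPM, centred for each gene on the mean of 20 mice, of the tested genes of each complex (coloured symbols), of 96 cytosolic ribosomal protein genes (plus signs) and of 6 mitochondrially encoded subunits (crosses), for each mouse. Mice 16 and 20 sit above 0 and mouse 15 below it for all 4 complexes and for the ribosomal proteins, and the mitochondrially encoded subunits of mouse 16 are at -0.24.

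The plot of medians by mouse shows that the same mice were high or low for all complexes and for genes outside the respiratory chain. The median of 96 cytosolic ribosomal protein genes was 0.99 in mouse 16, 0.37 in mouse 20 and -0.49 in mouse 15, and that of 45 nuclear complex I subunits was 0.84, 0.43 and -0.49. The member median less that of the ribosomal proteins, as a log2 ratio, averaged -0.03 ± 0.10 (SD, n = 5) in Control, 0.03 ± 0.12 in CE, -0.06 ± 0.14 in Sirt2-/- and 0.02 ± 0.13 in Sirt2-/-/CE, so that the groups lay within one another's spread. The 6 subunits encoded in mitochondrial DNA did not follow mouse 16, where their median was -0.24.

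Gene length moved with the members too. Over 3341 well-expressed genes, the deviation of a library from the mean of all libraries correlated with exon length at a Spearman's rho of -0.60 in mouse 16 and -0.41 in mouse 20, and at 0.49 in mouse 17. Control mouse 5 (-0.40) and Sirt2-/- mouse 14 (-0.39) had such a trend as well, with member medians of 0.20 and 0.02. After trends with length and GC content were removed from each library, the member median was 0.58 in mouse 16, 0.36 in mouse 20 and -0.43 in mouse 15, and -0.21 to 0.17 in the other mice. The mean centred log2 CPM of the circadian genes Dbp, Tef, Per3, Ciart and Nr1d2 less that of Arntl, Npas2 and Clock, which peak at another time of day, was low in CE mouse 9, Sirt2-/- mice 14 and 15 and Sirt2-/-/CE mouse 19, at -4.52, -5.72, -6.48 and -4.69, against -0.81 to 3.36 in the rest, and the member medians of these 4 mice were -0.21, 0.02, -0.54 and -0.06. By group, this circadian difference averaged 2.73 ± 0.82 (SD, n = 5) in Control, -0.24 ± 2.57 in CE, -1.54 ± 4.21 in Sirt2-/- and -0.95 ± 2.18 in Sirt2-/-/CE. All Sirt2-/-/CE mice (highest 0.865) were below all Control mice (lowest 1.33). The part of the ribosomal, length and circadian measures in the results was not tested.

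**Figure D2:**
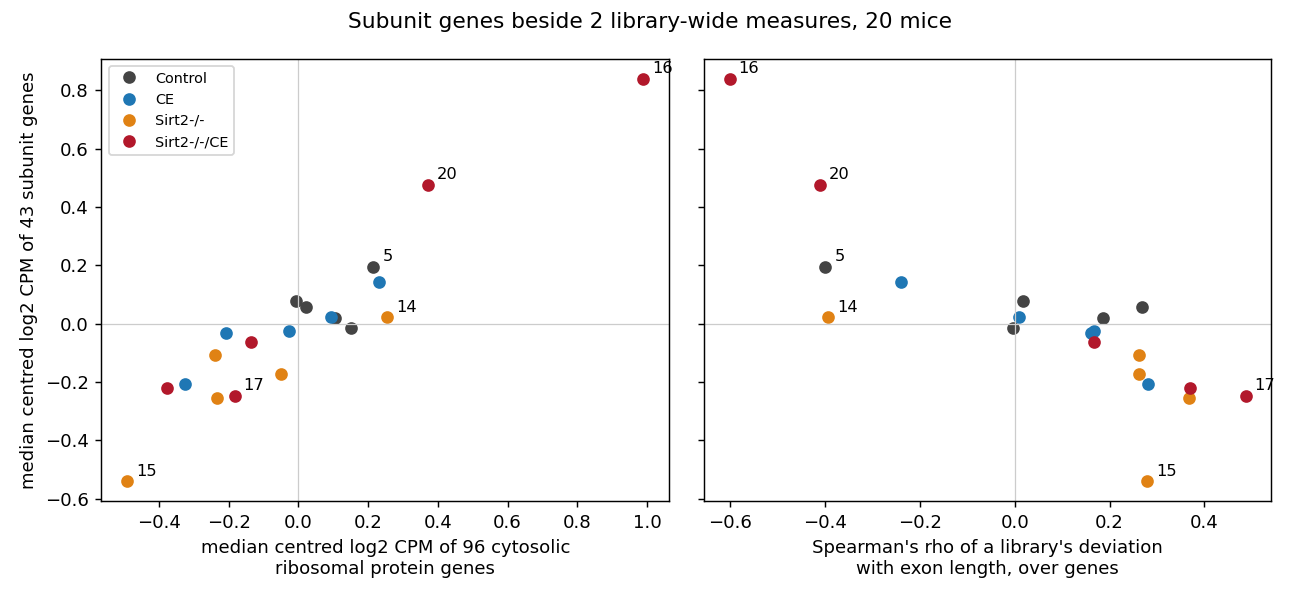
Each point is 1 mouse. The vertical axis is the median centred log2 CPM of the 43 tested members, and the horizontal axis is the same median of 96 cytosolic ribosomal protein genes (left) or Spearman's rho of the library's deviation with exon length (right). Mouse 16 lies at 0.99 and 0.84 on the left, at the upper end of both axes, and at -0.60 on the right.

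Levels between genes were compared as FPKM, which is scaled to gene length. In complex V they ran from Atp5b, the catalytic beta subunit, with a mean of 577 FPKM over 20 mice, to Atp5s with 2.15 FPKM. Atp5b was at 554 ± 42.8 FPKM (SD, n = 5) in Control, 537 ± 36.8 in CE, 572 ± 41 in Sirt2-/- and 647 ± 116 in Sirt2-/-/CE. Atp5a1, the alpha subunit that makes the catalytic head together with beta, followed at 388 FPKM. The head holds a single copy each of gamma, delta and epsilon, whose genes Atp5c1, Atp5d and Atp5e were at 176, 181 and 102 FPKM. Atp5o, the OSCP that links the head to the stalk, was at 144 FPKM, and the stalk genes Atp5f1, Atp5h and Atp5j at 162, 188 and 122 FPKM. Among the small membrane subunits, Atp5l and Atp5j2 were at 125 and 96.1 FPKM and Atp5k, for subunit e, only at 27.2 FPKM. 2 genes matched by symbol are not core subunits: Atp5s encodes coupling factor B, and Atp5sl, at 13.8 FPKM, is named Dmac2 in GENCODE vM21.

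In complex II, Sdha, the flavoprotein that oxidizes succinate, was at 162 FPKM, and Sdhb, the iron-sulfur subunit, at 151 FPKM. The membrane anchors differed from each other, with Sdhd at 145 FPKM and Sdhc at 46.1 FPKM. Complex III was the most even. Its 9 genes ran from Uqcrc1, a core subunit, at 162 FPKM to Uqcr11 at 110 FPKM, with Cyc1 (cytochrome c1) at 153 and the Rieske protein gene Uqcrfs1 at 125 FPKM. In complex IV, Cox4i1 and Cox6a1 led with 425 and 408 FPKM, followed by Cox8a with 228 FPKM. The other 8 well-expressed genes lay between 68.0 FPKM in Cox7a2l and 171 FPKM in Cox6b1.

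**Figure D3:**
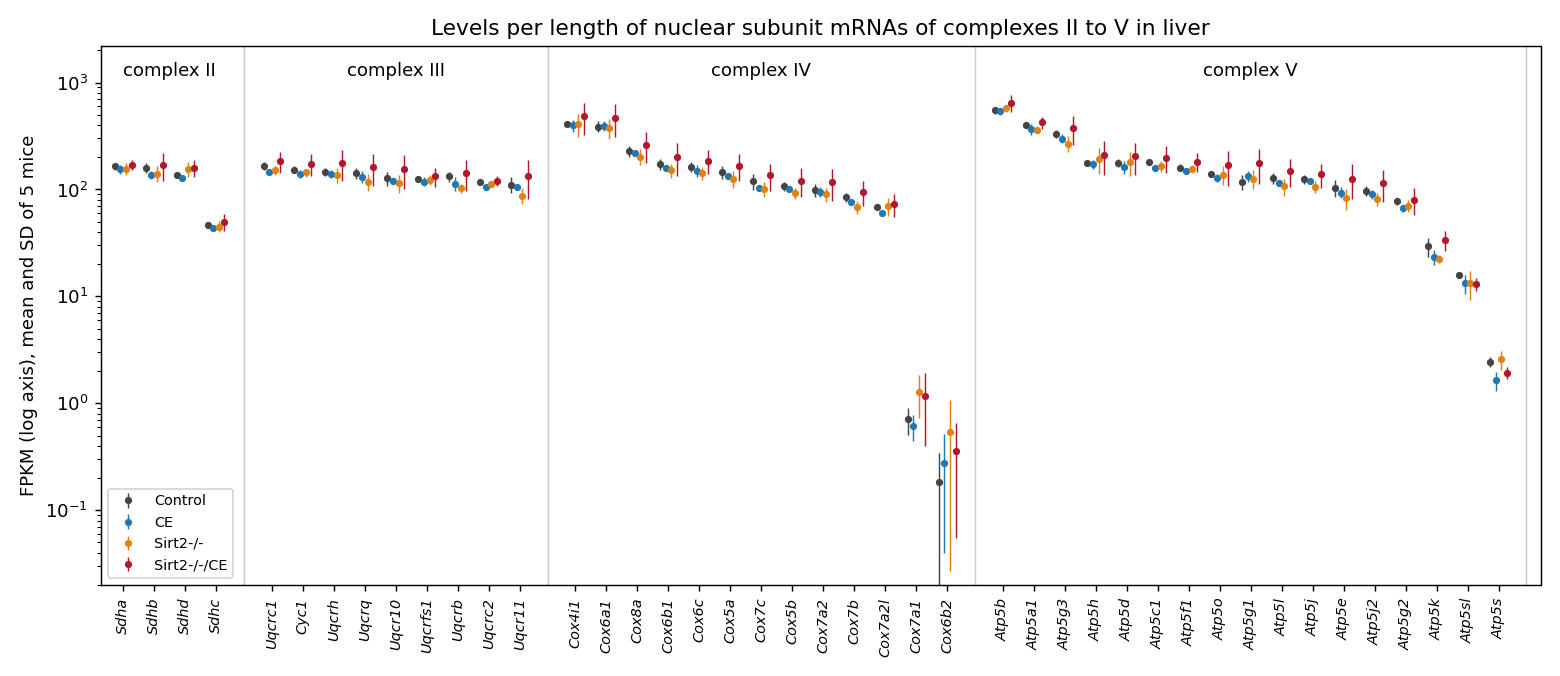
FPKM on a log axis of the 43 members that passed the filter on low counts, grouped by complex and ordered by mean level, with the mean and SD of the 5 mice of each group. Atp5b is highest at 577 FPKM, Sdhc is the low member of complex II at 46.1 FPKM, and Cox7a1 and Cox6b2 lie under 1 FPKM as a mean of 20 mice.

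Complex IV holds the genes with tissue-specific forms, and the liver forms made up nearly all of each pair. Cox4i2, a lung form, had 41 counts over all 20 mice, in 8 of them. Cox6a2 and Cox8b, forms of heart and skeletal muscle, had 10 and 3 counts. Cox7b2 and Cox8c had 0 counts in the 848314310 counts of all libraries, which allows up to 0.00354 CPM for 3 counts, for counting error only. Cox7a1, another muscle and brown fat form, was counted in all 20 mice, at 0.238% to 1.09% of the summed FPKM of Cox7a1, Cox7a2 and Cox7a2l. Its level was 0.287 ± 0.075 CPM in Control, 0.253 ± 0.078 in CE, 0.467 ± 0.204 in Sirt2-/- and 0.468 ± 0.322 in Sirt2-/-/CE (SD, n = 5). Cox6b2, a testis form, was counted in 16 mice and never exceeded 0.849% of the summed FPKM of both COX6B genes.

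The question of the first comparison, CE against Control, was whether repeated cold changed these mRNAs in wild-type liver. No member passed the test (0 of 43, adjusted p of edgeR's quasi-likelihood test with Benjamini-Hochberg adjustment over 15616 genes), where 1 gene of all tested did (0.0064%). DESeq2 called 0 members as well, where it called 188 genes (1.2%), and limma voom with quality weights called 1 member (Atp5s), where it called 540 genes (3.46%). Most members were slightly lower in CE, with a median log2 fold change of -0.09 against -0.01 for all genes tested, and 40 of 43 were lower where 51.0% of all genes were. The medians were -0.08 for complex II, -0.07 for III, -0.09 for IV and -0.10 for V. At an unadjusted p under 0.05, 1 member was lower and 0 were higher, against 5.22% of all genes that were lower at that p. In 0 members were all CE mice on one side of all Control mice, against 3.04% of all genes. The adipose list sums, which rest on Fabp4, Cidec, Car3 and Cfd, did not overlap, with 1195 to 2344 FPKM in Control and 103 to 1166 in CE. Their part in the result was not tested.

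The 1 member lower in CE at an unadjusted p under 0.05 was Atp5s, the coupling factor B gene. Its levels were 3.39, 4.38, 3.90, 3.66 and 4.34 CPM in Control and 2.58, 1.99, 3.79, 2.66 and 2.43 CPM in CE. All CE mice were below the Control mean, but mouse 8 overlapped with Control. The log2 fold change was -0.55 ± 0.20 (SE), with an adjusted p of 0.311 by edgeR. Under limma voom with quality weights it was -0.63 ± 0.17 with an adjusted p of 0.042, and under DESeq2 the adjusted p was 0.17. In Sirt2-/- it was at 2.88, 3.03, 4.29, 4.22 and 4.25 CPM, and in Sirt2-/-/CE at 3.82, 2.35, 2.57, 2.97 and 3.36 CPM, a log2 difference of -0.31 ± 0.20 that did not pass (adjusted p of edgeR 0.79).

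Of the other 11 members that were among the 3 with the lowest p of their complex, 10 had negative values. Atp5k was at -0.30 ± 0.18 with an adjusted p of 0.587 by edgeR, and Atp5g2 at -0.19 ± 0.17. In complex III, Uqcrc2, Uqcrb and Uqcrc1 were at -0.14 ± 0.11, -0.21 ± 0.20 and -0.17 ± 0.16, with adjusted p of 0.724 to 0.778 by edgeR. On the opposite strand, Pdzd9 overlaps 504 of the 2552 exon bases of Uqcrc2, and the sources used here do not say whether counting used strand. In complex IV, Cox7a2l and Cox7c were at -0.17 ± 0.17 and -0.19 ± 0.19, whereas the trace gene Cox6b2 was at 0.78 ± 1.04 (adjusted p of edgeR 0.863). In complex II, Sdhb was at -0.20 ± 0.19 and Sdha and Sdhd at -0.08 ± 0.11 and -0.08 ± 0.15. Without CE mouse 9, the lowest CE mouse, the median of the members was -0.05 and 31 of 43 were lower. Without Control mouse 5 the median was -0.06 and 35 of 43 were lower. With length and GC trends removed the median was -0.03 and 33 of 43 were lower.

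The second comparison asked what loss of Sirt2 did in unexposed liver. Again 0 of 43 members passed edgeR's test, where 139 genes (0.89%) did. DESeq2 also called 0, where it called 607 genes (3.89%). Limma voom with quality weights called 3 of 43, a share near that of all genes under this method, 906 genes or 5.8%. Most members were nonetheless lower in Sirt2-/- than in Control: 40 of 43 against 48.3% of all genes, with a median log2 fold change of -0.27 against 0.02. The medians were -0.20 for complex II, -0.28 for III, -0.31 for IV and -0.27 for V. At an unadjusted p under 0.05, 6 members were lower (Uqcrb, Cox7b, Atp5k, Atp5g3, Atp5a1 and Atp5j) and 0 higher, against 6.78% of all genes lower at that p. In 9 members, those 6 with Cox5b, Cox6b1 and Atp5j2, every Sirt2-/- mouse was below every Control mouse, where 3.61% of all genes had groups that did not overlap in either direction. The marker lists were summed for these groups too. The adipose sums, which rest on Fabp4, Cidec, Car3 and Cfd as given above, did not overlap. They were 1195 to 2344 FPKM in Control and 43.1 to 928 in Sirt2-/-. The leukocyte list, of which 7 of 9 genes were detected and Ly6g was at 0, summed to 17.6 to 48.2 FPKM in Control and 32.1 to 60.5 in Sirt2-/-. The 5 exocrine pancreas markers summed to 4.19 to 12.4 and 4.72 to 5.22 FPKM, and the 9 hepatocyte markers to 56416 to 83454 and 45394 to 72010 FPKM. The ranges of these last 3 lists overlapped, and the part of the marker lists in the result was not tested. CE and Sirt2-/- were set against the same Control mice, so the likeness of their directions is no independent result.

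Atp5k, a small membrane subunit at the dimer interface of complex V (chr5:108433244-108434448 on GRCm38, 3 exon blocks), had the lowest p. It was at 14.48, 11.53, 9.84, 11.36 and 14.33 CPM in Control and at 8.58, 9.18, 8.04, 9.27 and 7.41 CPM in Sirt2-/-. The groups did not overlap, and the knockout mice were close together. The log2 fold change was -0.53 ± 0.18 (SE), with an adjusted p of 0.145 by edgeR, 0.076 by DESeq2 and 0.0415 by limma voom with quality weights. With trends with length and GC removed it was -0.42 ± 0.15.

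Uqcrb, a complex III subunit at the ubiquinone site (chr13:66900617-66905378, 4 exon blocks), was at 74.41, 77.44, 66.58, 79.18 and 86.03 CPM in Control and at 58.03, 50.64, 57.54, 59.75 and 42.93 CPM in Sirt2-/-. Every knockout mouse was lower than every Control mouse. The log2 fold change was -0.51 ± 0.20 (adjusted p of edgeR 0.214, of limma voom with quality weights 0.0405). Uqcrb took 85.3% to 96.2% of the counts of itself and its 3 near-identical copies, so that its counts may be split. Cox7b, a small complex IV subunit with its gene on the X chromosome, was at 92.39, 94.31, 81.58, 90.42 and 94.69 CPM in Control and at 81.50, 69.62, 70.19, 62.10 and 49.74 CPM in Sirt2-/-. Mouse 11 lay just below the lowest Control mouse, and the other 4 were further below it. The log2 fold change was -0.44 ± 0.18 (adjusted p of edgeR 0.227).

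Atp5a1, the alpha subunit, had the highest mean FPKM of the 6. It was at 987, 1119, 1091, 997 and 1132 CPM in Control and at 914, 872, 947, 878 and 760 CPM in Sirt2-/-. The groups did not overlap, and the log2 fold change was -0.29 ± 0.13 (adjusted p of edgeR 0.291). Atp5g3, for the c subunit, was at -0.44 ± 0.20 (adjusted p 0.287 by edgeR) and Atp5j, for the stalk subunit F6, at -0.37 ± 0.17 (adjusted p 0.311 by edgeR). Atp5j shares 397 of its 3130 exon bases with Gabpa, which runs in the opposite direction. Atp5e, for epsilon, was called only by limma voom with quality weights (log2 fold change -0.57 ± 0.15, adjusted p 0.0309).

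Sdhb, the iron-sulfur subunit of complex II, was at 166.5, 186.4, 216.1, 187.6 and 226.5 CPM in Control and at 140.1, 144.2, 168.0, 199.9 and 134.1 CPM in Sirt2-/-. Mice 13 and 14 overlapped with Control and the other 3 knockout mice were below it, with a log2 fold change of -0.32 ± 0.19 (adjusted p of edgeR 0.437). Uqcrc2, a core subunit of complex III, was at -0.20 ± 0.11 (adjusted p of edgeR 0.433). Of the others with the lowest p in their complex, Sdhc was at -0.19 ± 0.14, Uqcr11 at -0.47 ± 0.23, Uqcrc1 at -0.28 ± 0.16, Cox5a at -0.35 ± 0.18 and Cox5b at -0.35 ± 0.19, with adjusted p of 0.338 to 0.56 by edgeR. Sdhd and the trace genes Cox7a1 and Cox6b2 were the 3 members above 0. The count of 6 depended on the fit: 2 members were lower at an unadjusted p under 0.05 without mouse 15 (median -0.21), 3 without Sirt2-/- mouse 12, Control mouse 2 or Control mouse 5, 9 without mouse 11 or 13, 10 without mouse 14, 19 with only both groups compared in the fit and 26 under limma voom with quality weights. With library size in place of TMM scaling, which put the median of all genes at 0.16, it was -0.14, and 35 of 43 members were lower. On log2(FPKM + 1) with limma it was -0.13, and with length and GC trends removed -0.23.

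**Figure D4:**
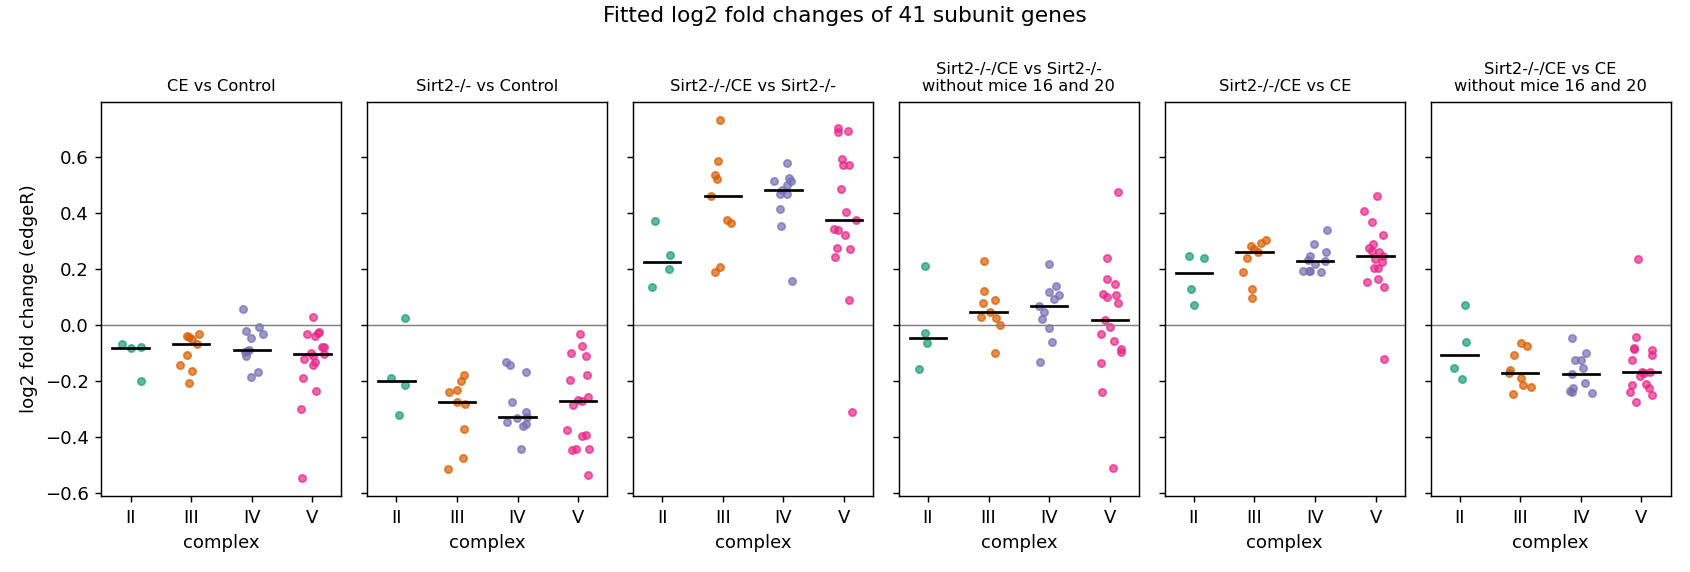
Log2 fold changes fitted by edgeR for 41 members (the trace genes Cox6b2 and Cox7a1 are left out), by complex, with the median as a bar. Values in Sirt2-/- vs Control are mostly below 0, and those of both comparisons with Sirt2-/-/CE drop when mice 16 and 20 are left out.

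The third comparison asked what cold did in knockout liver. 0 of 43 members passed edgeR's test, as did 0 of all genes (0.0%), and DESeq2 and limma voom with quality weights called 0 members, where they called 7 genes (0.0448%) and 0 genes. Nearly all members had higher values in Sirt2-/-/CE than in Sirt2-/-: 41 of 43 against 50.9% of all genes, with a median log2 fold change of 0.40 against 0.01, and medians of 0.23, 0.46, 0.47 and 0.37 for complexes II to V. At an unadjusted p under 0.05, 25 members were higher and 0 lower, against 3.96% of all genes that were higher at that p. No member had groups that did not overlap, against 0.743% of all genes. Sums of the adipose list did not overlap, with 43.1 to 928 FPKM in Sirt2-/- and 1100 to 1550 in Sirt2-/-/CE. These sums rest on Fabp4, Cidec, Car3 and Cfd, as given above. Sums of the exocrine pancreas list did not overlap either (4.72 to 5.22 and 5.79 to 17.4 FPKM). The part of both lists in the result was not tested. Without mice 16 and 20 the median was 0.03, 26 of 43 members were higher, 1 was higher at that p (Atp5k) and 1 was lower (Atp5s, -0.51 ± 0.23). With only both groups in the fit, 10 members were higher at that p. Without mouse 16 alone the median was 0.21 with 7 members higher at that p, and without mouse 20 alone 0.35 with 15. Without Sirt2-/- mouse 15, the lowest of its group, it was 0.305 with 13. Under limma voom with quality weights the median was 0.16 with 5 members higher at that p, and with length and GC trends removed 0.28 with 21.

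Cox4i1, the largest nuclear subunit of complex IV, shows how the group divided. It was at 299.7, 256.7, 301.0, 413.8 and 218.3 CPM in Sirt2-/- and at 645.6, 269.1, 278.4, 310.6 and 399.2 CPM in Sirt2-/-/CE. Mouse 16 was above every other mouse, and mice 17 to 20 lay inside the range of Sirt2-/-. The log2 fold change was 0.35 ± 0.21 (adjusted p of edgeR 0.776), and -0.06 ± 0.18 without mice 16 and 20. Uqcr11, a small complex III subunit, had the largest log2 fold change of the 43 members in this comparison, 0.73 ± 0.23 (adjusted p of edgeR 0.54). It was at 47.45, 35.39, 43.08, 41.32 and 27.63 CPM in Sirt2-/- and at 112.0, 38.59, 40.93, 57.52 and 74.78 CPM in Sirt2-/-/CE, where mice 17 and 18 were again inside the range of Sirt2-/-. Its log2 fold change was 0.23 ± 0.18 without mice 16 and 20.

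Atp5k differed from this pattern. It was at 18.94, 8.29, 12.33, 14.82 and 14.28 CPM in Sirt2-/-/CE, so that 4 of the 5 mice were above the highest Sirt2-/- mouse, at 9.27 CPM. The log2 fold change was 0.69 ± 0.18, with an adjusted p of 0.503 by edgeR. Without mice 16 and 20 it was 0.47 ± 0.18, with an adjusted p of 0.866 by edgeR. Of the other members by p, Cox7b was at 0.58 ± 0.18, Uqcrb at 0.59 ± 0.20, Atp5e at 0.69 ± 0.23 and Atp5g1 at 0.70 ± 0.24, with adjusted p of 0.503 to 0.559 by edgeR. Without mice 16 and 20 these 4 were at 0.22, 0.12, 0.24 and 0.08, in the same order. With all mice, Uqcr10, Cox5a and Cox5b were at 0.53 ± 0.21, 0.51 ± 0.18 and 0.50 ± 0.19, and Sdhb and Sdhc at 0.37 ± 0.19 and 0.25 ± 0.14, with adjusted p of 0.559 to 0.728 by edgeR.

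Set against CE, the other group in the cold, Sirt2-/-/CE again had 0 of 43 members past edgeR's test, where 2 of all genes (0.0128%) passed. DESeq2 and limma voom with quality weights called 0 members, where they called 31 genes (0.199%) and 2 genes (0.0128%). 42 of 43 members had higher values against 52.6% of all genes, with a median log2 fold change of 0.24 against 0.02, and 1 member, Atp5k, was higher at an unadjusted p under 0.05, against 3.89% of all genes. With library size in place of TMM scaling, which moved the median of all genes to 0.11, 15 members were higher at that p, on log2(FPKM + 1) with limma 8, and without mouse 17, 18 or 19 3 to 4. No member had groups apart, against 1.22% of all genes. The direction rested on mice 16 and 20 together, since without them the median was -0.17 and 2 of 43 members were higher. Without mouse 16 alone the median was 0.05 and 28 of 43 were higher. Without mouse 20 alone it was 0.16 and 42 of 43 were higher. Under limma voom with quality weights the median was -0.04 and 14 of 43 members were higher, and with length and GC trends removed the median was 0.09. Atp5k was at 0.46 ± 0.18 (adjusted p 0.663 by edgeR) with all mice and at 0.23 ± 0.18 without both. CE mice had 10.74, 8.22, 9.81, 11.32 and 9.82 CPM of Atp5k, and 4 of the 5 Sirt2-/-/CE mice were above all of them. In complex V, Atp5g1 and Atp5e followed at 0.41 ± 0.24 and 0.37 ± 0.23. In complex IV, Cox7a1, Cox7c and Cox5a were at 0.88 ± 0.48, 0.34 ± 0.19 and 0.26 ± 0.18, and in complex III, Uqcrc1, Cyc1 and Uqcrb at 0.26 ± 0.16, 0.24 ± 0.16 and 0.28 ± 0.20. Sdhd, Sdhb and Sdhc of complex II were at 0.24 ± 0.15, 0.25 ± 0.19 and 0.13 ± 0.14. These 11 members had adjusted p of 0.875 to 0.952 by edgeR, and all 11 were below 0 without mice 16 and 20.

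The difference between the cold effects in knockout and wild-type liver, tested as an interaction in the same fit, passed for 0 of 43 members and for 0 genes in all (0.0%) by edgeR, and for 0 members by DESeq2 and by limma voom with quality weights, which called 41 genes (0.263%) and 0 genes. It was positive for 42 of 43 members against 50.2% of all genes, with a median of 0.50 on the log2 scale, and 18 members were above 0 at an unadjusted p under 0.05 against 4.73% of all genes. The medians by complex were 0.30, 0.54, 0.50 and 0.50 for II to V. Atp5k had the lowest p, with 0.99 ± 0.25 (adjusted p 0.293 by edgeR, 0.0558 by DESeq2). Uqcrb was at 0.79 ± 0.28, Cox7b at 0.69 ± 0.25 and Sdhb at 0.57 ± 0.26, with adjusted p of 0.455, 0.466 and 0.58 by edgeR. The other members with the lowest p of their complex were Atp5e (0.81 ± 0.32), Atp5g3 (0.71 ± 0.28), Uqcr11 (0.77 ± 0.32), Uqcrc1 (0.54 ± 0.22), Cox7c (0.70 ± 0.27), Cox5a (0.61 ± 0.26), Sdha (0.28 ± 0.16) and Sdhc (0.32 ± 0.19), with adjusted p of 0.505 to 0.697 by edgeR. Without mice 16 and 20 the median was 0.13, 1 member was above 0 at that p, and Atp5k was at 0.78 ± 0.24 (adjusted p 0.604 by edgeR). With length and GC trends removed the median was 0.32, and under limma voom with quality weights 0.23, each with 7 members above 0 at that p. With 1 mouse left out in turn, this count ran from 5 (without mouse 16) to 29 (without mouse 18). It was 7 without Sirt2-/- mouse 15 and 9 without mouse 20.

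The members varied together from mouse to mouse. Over the 20 mice, the median Pearson's r of the log2 CPM of 741 pairs of 39 members, those tested without Cox6b2, Cox7a1, Atp5s and Atp5sl, was 0.86, and it was 0.86 after group means were removed and 0.76 after length and GC trends were removed. These pairs share libraries and their depth, and the values are a description. Atp5j2, Cox6b1, Cox5b and Atp5l followed the mean of the other members most closely, with r from 0.975 to 0.978, while Atp5k (0.72) and Sdhd (0.75) did so less and Sdha hardly at all (0.19).

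Sdha stood apart from the subunits it is assembled with. It was at 497.6, 578.4, 503.1, 489.8 and 513.4 CPM in Control and 498.0, 499.7, 443.8, 490.1 and 506.6 CPM in CE. In Sirt2-/- it was at 490.6, 481.4, 513.7, 358.7 and 381.8 CPM and in Sirt2-/-/CE at 457.9, 500.9, 522.5, 521.7 and 556.3 CPM. Mouse 16, the highest in the other complex II genes, was the lowest of its group for Sdha, and mice 14 and 15 were the lowest of all. The ratio of Sdha to Sdhb counts was 1.59 in mouse 16, 1.80 in mouse 14 and 2.02 in mouse 20, and 2.27 to 3.53 in the other 17 mice. Those 3 mice, with Control mouse 5 at 2.27, also had the 4 most negative length trends, and Sdha has 4126 exon bases against 2239 in Sdhb. Atp5b and Uqcrc1, with 4237 and 4135 exon bases, followed the other members at r of 0.90 and 0.96 and were highest in mouse 16. The part of gene length in the values of Sdha was not tested. The log2 fold changes of Sdha were -0.21 ± 0.11 in Sirt2-/- against Control and 0.20 ± 0.11 in Sirt2-/-/CE against Sirt2-/- (adjusted p of edgeR 0.394 and 0.747), and without mice 16 and 20 the latter was 0.21 ± 0.12.

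**Figure D5:**
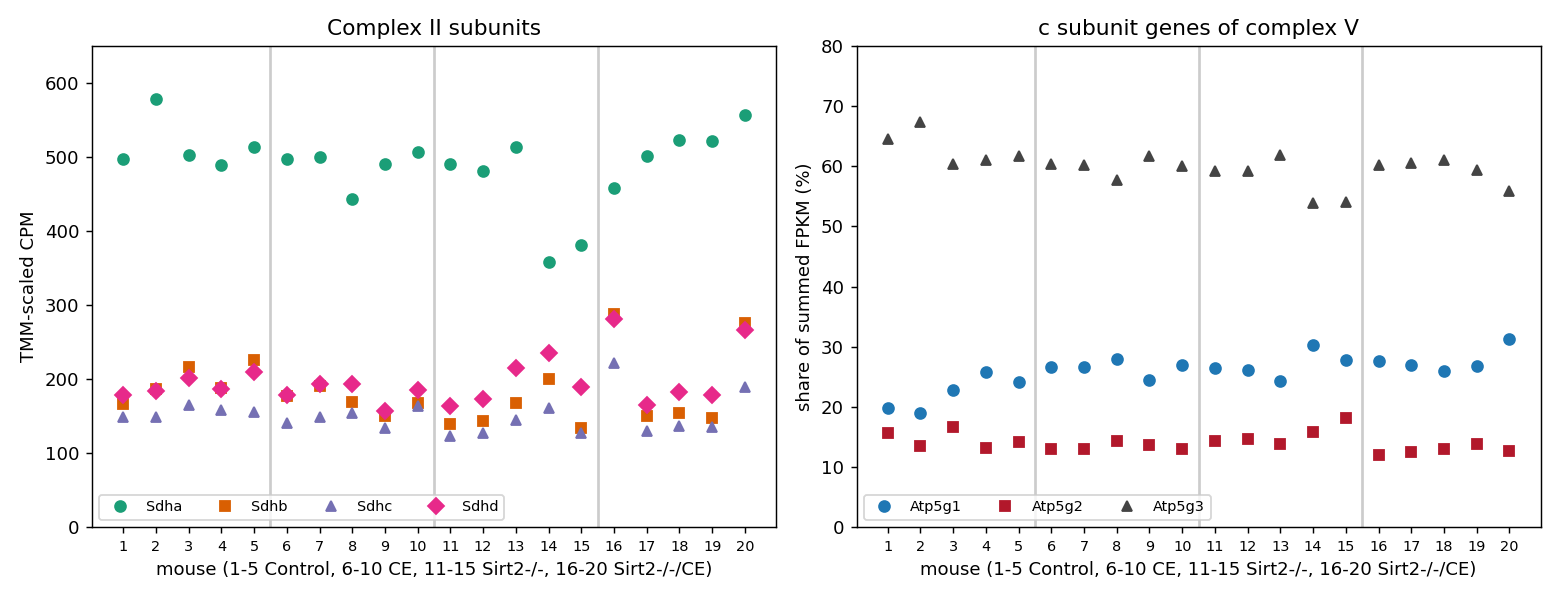
Left, TMM-scaled CPM of the 4 complex II genes in each mouse. Right, the share in percent of the 3 c subunit genes in their summed FPKM. Sdha is lowest in mice 14 and 15 at 358.7 and 381.8 CPM, whereas Sdhb, Sdhc and Sdhd are highest in mouse 16, and Atp5g3 holds 53.9% to 67.3% of the c subunit FPKM.

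The c subunit, which forms the rotating ring of complex V, is encoded by Atp5g1, Atp5g2 and Atp5g3, whose proteins differ only in the import peptide that is cut off. As shares of their summed FPKM in Control, Atp5g3 held 63.0% ± 2.89 (SD, n = 5), Atp5g1 22.3% ± 2.85 and Atp5g2 14.7% ± 1.45. The share of Atp5g1 was 19.8%, 19.1%, 22.9%, 25.8% and 24.1% in Control and 26.5%, 26.1%, 24.3%, 30.3% and 27.7% in Sirt2-/-. The groups overlapped by 1 mouse on each side, and the difference of 4.69 percentage points had p = 0.0159 in an exact two-sided permutation test over all splits of the 10 mice, adjusted to 0.0635 over 12 tests. In CE the share was 26.6%, 26.7%, 27.9%, 24.5% and 26.9%, 4.22 points above Control with the same p values of that exact test. The share of Atp5g2 was 12.8% ± 0.66 in Sirt2-/-/CE and 15.3% ± 1.71 in Sirt2-/-, a difference of -2.495 points (exact p = 0.0159, adjusted 0.0635) that was -2.21 points without mice 16 and 20.

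The share of Atp5g3 differed by -5.34 points between Sirt2-/- and Control (exact p = 0.0317, adjusted 0.0952), and none of the 12 differences in shares passed after adjustment. Without Sirt2-/- mouse 13, the differences in Atp5g1 and Atp5g3 between Sirt2-/- and Control were 5.35 and -6.39 points and that in Atp5g2 between Sirt2-/-/CE and Sirt2-/- -2.88 points, all with an adjusted exact p of 0.0476. With other single mice left out, the adjusted exact p reached 0.171, 0.214 and 0.127 for these 3 differences. As shares of counts in place of FPKM, the difference in Atp5g1 was 1.96 points in Sirt2-/- and 2.13 in CE, with adjusted p of 0.444 in the same exact permutation test. On that scale Atp5g3 differed by -3.23 points between Sirt2-/- and Control (adjusted exact p 0.444), and Atp5g2 by -2.77 points between Sirt2-/-/CE and Sirt2-/- (adjusted exact p 0.0952). Near-identical copies also took reads: Atp5g1 held 71.9% to 78.2% and Atp5g2 68.6% to 79.2% of the counts of the gene and its copies, whereas Atp5g3 has no such copy.

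The other genes of the pathway were read from fixed lists, and 0 of each list passed edgeR's test in any of the 5 comparisons. Of 35 tested assembly factors of complexes II to V, 6 were past an unadjusted p of 0.05 in Sirt2-/- against Control, 4 higher and 2 lower, where 8.14% and 6.78% of all genes were, with a median log2 fold change of 0.12 where the members had -0.27. Taco1, a translation activator for a mitochondrial complex IV subunit, was at 0.49 ± 0.15 and Cox17, a copper chaperone, at -0.43 ± 0.20 (adjusted p of edgeR 0.10 and 0.31). The 6 mitochondrially encoded subunits had medians of -0.14 in Sirt2-/- against Control and 0.13 in Sirt2-/-/CE against Sirt2-/-, with 0 of 6 past an unadjusted p of 0.05 in either. The 45 nuclear complex I subunits had medians of -0.19 and 0.37 in these comparisons, and 96 cytosolic ribosomal protein genes had -0.26 and 0.35. When mice 16 and 20 were left out, the medians in Sirt2-/-/CE against Sirt2-/- were 0.11 for the mitochondrially encoded subunits, -0.02 for complex I and -0.11 for the ribosomal proteins.

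Of 14 transcription factors and coactivators of respiratory genes, 12 had lower values in Sirt2-/-/CE than in Sirt2-/-, where 49.1% of all genes did, with a median of -0.19. At an unadjusted p under 0.05, 4 were lower, against 3.29% of all genes. Gabpa and Gabpb1, which encode the subunits of GABP, were at -0.61 ± 0.21 and -0.73 ± 0.19 (adjusted p of edgeR 0.559 and 0.503). With both mice left out, 9 of the 14 had lower values, 3 of them at an unadjusted p under 0.05, with Gabpa at -0.36 ± 0.19 and Gabpb1 at -0.54 ± 0.20. Tfb1m, a mitochondrial rRNA methyltransferase, was at 0.65 ± 0.18 in Sirt2-/- against Control (adjusted p of edgeR 0.0769) and at -0.49 ± 0.18 in Sirt2-/-/CE against Sirt2-/-, or -0.50 ± 0.20 without both mice. Cycs, for cytochrome c, and Atpif1, for the inhibitor of complex V, had a largest log2 fold change of 0.61 ± 0.26, in Atpif1 in Sirt2-/-/CE against Sirt2-/- (adjusted p of edgeR 0.662), which was 0.03 ± 0.23 without both mice.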

How the data were processed

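Liver mRNA of 20 mice was enriched with oligo(dT) and sequenced, 1 library per mouse. The authors deposited a table with raw counts and FPKM per gene and mouse. FPKM values deposited by the authors are scaled to gene length and depth. For some genes this scale differed between mice. Atp5g1 was at 105.34 FPKM and 84.38 CPM in Control mouse 1, but at 133.22 FPKM and 83.52 CPM in Sirt2-/- mouse 11. Sdha was at 170.4 FPKM and 497.55 CPM in the former and at 167.74 FPKM and 490.55 CPM in the latter. How gene lengths were set is not given in the sources used here. Its part in the c subunit shares was not tested. The labels name mm10; the aligner, counter and its use of strand are not given in the sources used here. Of the lines, 9 named no gene and were left out; 0 columns were left unused.

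Mice were grouped by their labels. Counts were filtered with filterByExpr (minimum count 10, total 15), scaled by TMM and tested in 1 fit over 20 libraries with edgeR 4.0.16 quasi-likelihood tests in R 4.3.3, with Benjamini-Hochberg adjustment over all genes at 0.05. SEs came from the fold change and F. In a simulation of Sirt2-/- vs Control over 15329 genes, 61% of genes changed by a log2 of 1 were recovered, and 6.33% of calls were false. It drew each gene independently and held no change below a log2 of 1. These rates therefore do not cover smaller changes or genes that vary together, as the members did. The depth of 35499796 to 53917339 counts and 5 mice a group set the precision. The 2 closest libraries still differed beyond sampling noise. Shares of c subunit genes used FPKM and exact permutation tests (scipy 1.17.1). Exon positions came from GENCODE vM21, and near-identical copies from BLAST+ 2.17.0 of coding sequences (95% identity, 100 bases).

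Alternatives were DESeq2 1.42.0, limma 3.58.1 (voom with quality weights, and log2(FPKM + 1)), upper-quartile or library size scaling, other filters, only the 2 groups compared, and each mouse left out. Leaving out mice 16 and 20 and removing length and GC trends were added after the data were seen. Named genes were Sirt2, the subunits by complex and role, the 3 members of each complex with the lowest p in each comparison, those failing the filter, and the highest and lowest FPKM of each complex. Genes past an unadjusted p of 0.05 outside this rule were named after their values were seen. Members and lists were chosen with earlier results of these data known.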

Additional observations from a re-analysis of the deposited data

Results flagged for a closer look

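Among groups of 5 mice, single values that stood apart from the other 4 by Dixon's criterion were found in 8 of 124 groups tested, where chance flags about 1 in 20 (6.2 groups). Complex II as a whole was low in CE mouse 9, with a median centred log2 CPM of -0.196. Uqcrc1 was low in the same mouse at 231.1 CPM. CE mouse 8 was apart for 3 members, with a low Sdha at 443.8 CPM and a high Uqcr10 and Atp5e at 73.1 and 58.7 CPM. Sdha was also high in Control mouse 2, at 578.4 CPM. In Sirt2-/-, Uqcrc2 was high in mouse 13 at 238.3 CPM, and Cox5b was low in mouse 15 at 57.8 CPM. The causes were not tested.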

How the results depend on the processing

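No paired analysis was possible because the groups share no replicate numbers. The member medians were -0.123 to -0.033 in CE against Control and -0.336 to -0.132 in Sirt2-/- against Control over 19 alternatives each, 0.028 to 0.523 in Sirt2-/-/CE against Sirt2-/- and -0.169 to 0.331 in Sirt2-/-/CE against CE over 20, and 0.129 to 0.615 for the interaction over 29. Of the values that answer a comparison, 337 kept their direction and side of the threshold or moved by less than the spread. The counts of members past the threshold moved only with limma voom with quality weights, as the calls over all genes rose from 1 to 540 and from 139 to 906: from 0 to 1 in CE against Control (Atp5s, -0.625 with an adjusted p of 0.042) and from 0 to 3 in Sirt2-/- against Control (with Uqcrb at -0.524 and Atp5k at -0.545). Under that method the interaction median was 0.23 (0.225 for complex V), and in Sirt2-/-/CE against CE the values of 28 members turned negative, among them Cox5a (-0.022), Atp5g1 (-0.093), Sdhb (-0.068), Uqcrb (-0.063), Cyc1 (-0.019) and Sdhc (-0.058). Without mice 16 and 20, the medians of all members were 0.028 in Sirt2-/-/CE against Sirt2-/-, -0.169 against CE and 0.129 for the interaction. By complex II to V they were -0.046, 0.048, 0.048 and 0.016 against Sirt2-/-, -0.107, -0.173, -0.175 and -0.169 for II to V against CE, and 0.088, 0.134, 0.082 and 0.11 for the interaction. Then 15 members turned negative against Sirt2-/-, among them Sdhb (-0.064) and Sdhc (-0.028), and 40 against CE, among them Cox5a (-0.155), Sdhd (-0.06), Atp5g1 (-0.224), Sdhb (-0.192), Atp5e (-0.09), Cox7c (-0.046), Uqcrb (-0.191), Cyc1 (-0.106), Uqcrc1 (-0.076), Sdhc (-0.155) and Cox7a1 (-0.039). With 1 mouse left out in turn, Sdhc against CE was -0.009 (without mouse 16) to 0.189. The complex II median in Sirt2-/- against Control was -0.062 with library size only and -0.061 with log2(FPKM + 1). Likewise the Atp5g1 share was 3.867 to 5.548 points higher and the Atp5g3 share -6.388 to -4.256 points different in Sirt2-/- against Control, and the Atp5g2 share -2.88 to -1.802 points different in Sirt2-/-/CE against Sirt2-/-. Their adjusted exact permutation p was lowest at 0.0476 without Sirt2-/- mouse 13 and reached 0.171, 0.214 and 0.127 without other mice. The cause of these changes was not tested. The 5 untested members, with at most 9 counts in a mouse, could not be compared between groups.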
